A study of Sus scrofa with 4 samples.

Results

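Messenger RNA levels are given for 9 genes of matrix turnover, the matrix metalloproteinases MMP1, MMP2, MMP3, MMP9, MMP11 and MMP14 and their inhibitors TIMP1, TIMP2 and TIMP3. They were picked by name, with earlier results of these data known. The 9 are among 26921 genes and loci in each deposited table, and all 9 were among the 15763 with enough counts to be tested. The cells came from pig testis and were labelled as immature spermatogonia. In 2 libraries the cells carried a knockdown of ZBTB16, a BTB zinc finger transcription factor that marks undifferentiated spermatogonia, and in 2 libraries the control cells were labelled WT. The series' design plans a short hairpin RNA delivered by lentivirus, and the labels do not say whether the control cells received a vector, so the knockdown and the virus cannot be told apart. The age of the animals and the number pooled are not given in the sources used here.

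Matrix metalloproteinases are zinc endopeptidases that cut collagens, other matrix proteins and cell-surface proteins. Most are secreted as inactive precursors, and a part of the chain must be removed or displaced before they act. TIMPs bind the active site and block it. In the testis, MMPs and TIMPs are known from Sertoli, peritubular and interstitial cells, where they act in remodelling of the basement membrane and of the junctions beneath which spermatogonia sit.

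Summed markers of peritubular and fibroblast-like cells and of Sertoli cells stood far above those of germ cells in all 4 libraries, and those of macrophages and endothelial cells below. On the FPKM scale (fragments per length of transcript and size of library), the 12 markers of peritubular and fibroblast-like cells summed to 7073 and 6948 in the knockdown libraries, against 7326 and 7236 in the control libraries. The 12 germ cell markers summed to 142 and 140 in the knockdown and 174 and 173 in the control, and most of that was UCHL1. Without UCHL1 the sums were 52.94 and 54.75 in the knockdown and 52.31 and 52.91 in the control. By TPM the sums without UCHL1 were higher in the knockdown, at 83.35 and 86.52 against 70.70 and 71.29. Of the 11 tested germ cell markers 4 rose (22.7% over all tested genes), 4 fell (23.8%) and 3 did not pass. ID4 averaged 28.4 FPKM in the knockdown and 24.6 in the control and did not pass (log2 fold change 0.11, adjusted p = 0.0769, edgeR). DDX4, a germ cell RNA helicase, averaged 1.94 ± 0.106 FPKM in the knockdown and 2.13 ± 0.240 in the control (SD, n = 2 each), and GFRA1 and LIN28A stayed under 1 in all 4 libraries. The 10 Sertoli markers summed to 955 and 981 in the knockdown against 791 and 778 in the control, and the 12 macrophage markers to 81.9 and 78.0 in the knockdown against 138 and 143 in the control. Most of the macrophage difference was TYROBP, and without it the sums were 36.3 and 40.1 in the knockdown and 46.0 and 51.5 in the control. Direction could turn with the scale, since FPKM over all genes summed to 634962 and 632881 in the knockdown and 739808 and 742383 in the control: by TPM the peritubular and fibroblast-like sums were 11140 and 10978 in the knockdown and 9903 and 9747 in the control. The macrophage sums were lower and the Sertoli sums higher in both knockdown libraries by FPKM, TPM and CPM (counts scaled to library size with TMM factors). None of these scales removes the length trend described below. No marker was at 0 in all 4 libraries. In such bulk samples fewer cells of a type and less RNA per cell cannot be told apart.

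**Figure D1:**
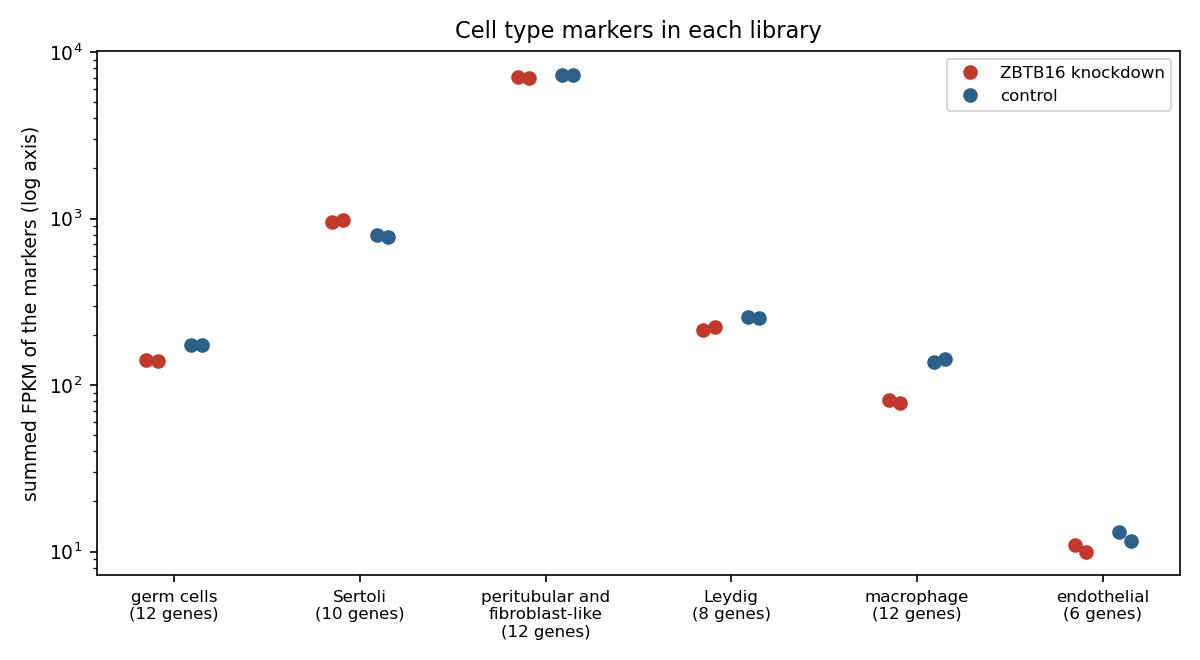
Summed FPKM (log axis) of the markers of 6 cell types in each library, knockdown left and control right, with 1 point per library. The peritubular and fibroblast-like markers lie far above the germ cell markers in all 4 libraries, and the macrophage sums are lower in both knockdown libraries (81.9 and 78.0, against 138 and 143 in the control), most of that difference being TYROBP.

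ZBTB16 itself was at 1.37 and 1.34 FPKM in the knockdown libraries and at 1.77 and 1.76 in the control libraries, a modest reduction (log2 fold change -0.36, adjusted p = 0.00338, edgeR). The call depended on the test: DESeq2 gave an adjusted p of 0.113. With a length trend (described next) removed the log2 change was -0.51. On log2(TPM + 1) it was -0.11 and did not pass (limma, adjusted p = 0.332). Nor did ZBTB16 pass on log2(FPKM + 1) (limma, log2 -0.23, adjusted p = 0.0685). Library totals were 18500447 and 16548342 expected counts in the knockdown and 17283536 and 15983390 in the control. The mean fragment was shorter in the knockdown, at 266.4 and 267.4 bases, than in the control, at 325.7 and 326.7 bases. Across all tested genes the log2 fold change followed transcript length (Spearman's rho 0.37 over 15763 genes, a description across genes), so each of the 9 genes is also given with the length trend removed. The labels describe 2 independent experiments as the source of the RNA. Replicates differed little more than by sampling (chi-square per degree of freedom 1.26 in the knockdown and 1.15 in the control), and p-values read no more than the spread of these libraries, part of which may be technical.

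In the knockdown the RNA of 4 proteinases, MMP3, MMP9, MMP11 and MMP14, fell to between 0.477 and 0.772 times control, and that of the inhibitor TIMP3 rose 1.24-fold. MMP2, the most abundant proteinase, and MMP1 did not pass the test. TIMP1 and TIMP2, the most abundant of the 9, differed by less than 1.1-fold by counts, and both the size and the direction of their change depended on how length was handled (by FPKM TIMP1 stood at 0.804 times control). In all, 5 of the 9 fell and 2 rose (edgeR's quasi-likelihood test, Benjamini-Hochberg adjusted p under 0.05 over all tested genes). Among all tested genes 46.4% were called, 23.8% as lower and 22.7% as higher, so a call by itself sets no gene apart here. With DESeq2 6 of the 9 were called (28.2% of all genes), 2 as higher (13.8%) and 4 as lower (14.4%). With the length trend removed 7 were called (40.9%), 3 as higher (19.3%) and 4 as lower (21.6%), and with length and GC trends removed 8 (39.1%), 4 as higher (19.2%) and 4 as lower (20.0%). An offset for effective length gave 6 calls (46.4%), 1 as higher (22.5%) and 5 as lower (23.9%). The median log2 fold change was -0.16 over the 9 genes and -0.40 over the 6 proteinases, against -0.00 over all tested genes. The median size was 0.32 for the 9 and 0.21 for all tested genes, both on the log2 scale. With 2 libraries a group, the smallest two-sided p of an exact permutation test is 0.333, and every call rests on a spread pooled across genes.

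**Figure D2:**
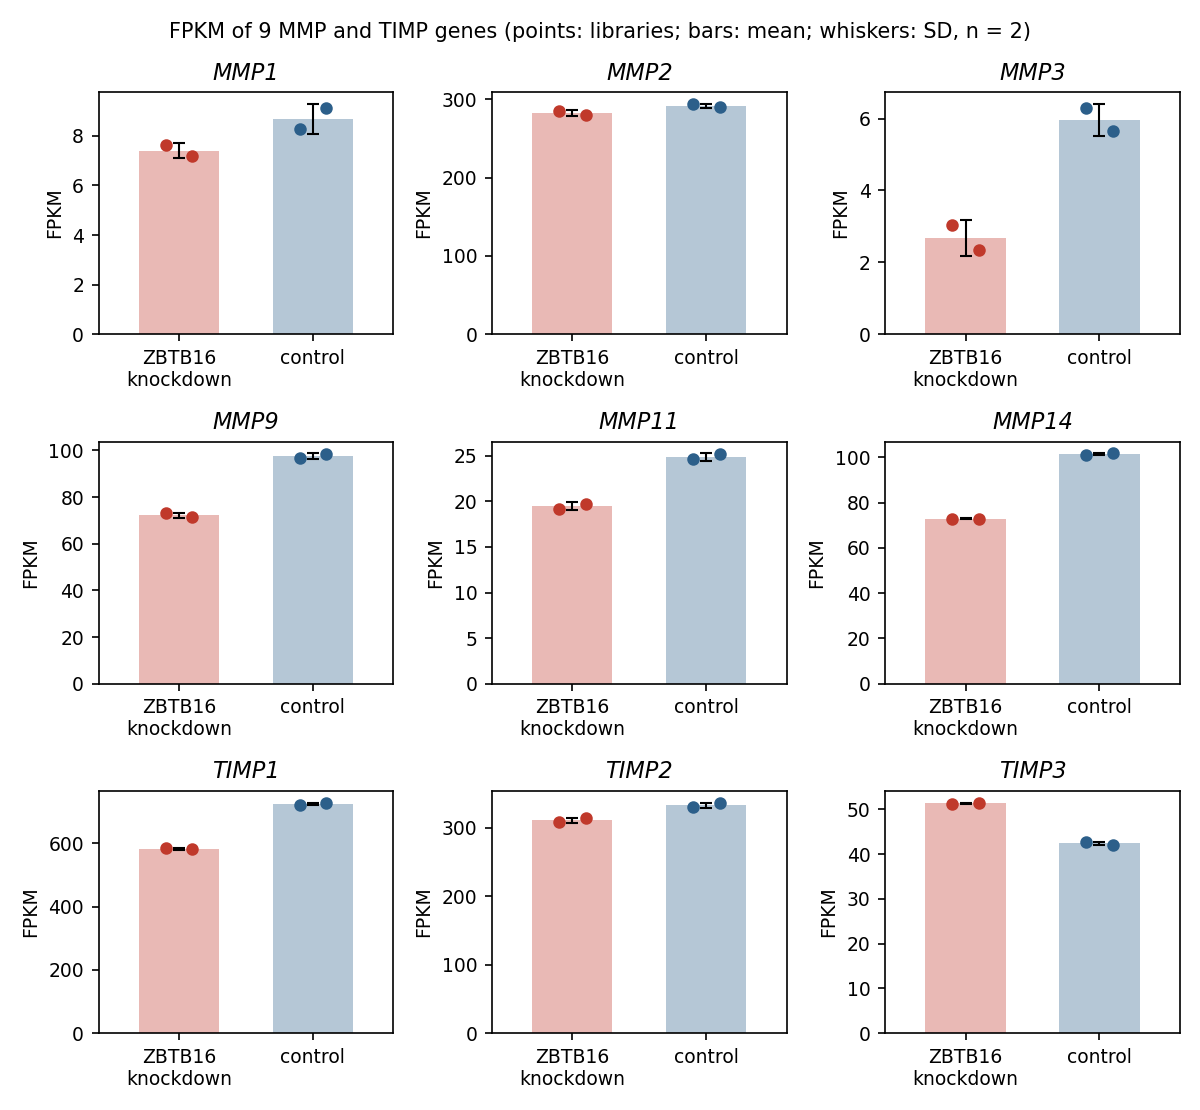
FPKM of each gene by library (points), with the group mean (bar, from 0) and SD (whisker, n = 2), knockdown left and control right. MMP3, MMP9, MMP11 and MMP14 are lower in both knockdown libraries than in either control library, and TIMP3 is higher in both.

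Per length, TIMP1 was the most abundant and MMP3 the least. In the control the order by mean FPKM was TIMP1, TIMP2, MMP2, MMP14, MMP9, TIMP3, MMP11, MMP1 and MMP3, from 724 down to 5.98, and the knockdown had the same order, from 583 down to 2.68. The libraries of neighbours in this order did not overlap, except MMP14 and MMP9 in the knockdown, which had 72.9 and 73.0 FPKM (MMP14) and 73.0 and 71.5 FPKM (MMP9). TIMP1 lay above 99.0% of tested genes by control FPKM, MMP2 above 97.8% and MMP3 above 44.5%.

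The upstream sequences of the 4 proteinases that fell and of TIMP3 are shown, picked with their calls known. Each is the 250 bases before the annotated gene start, 5′ to 3′ on the gene's strand, read from the RefSeq assembly Sscrofa11.1. Capitals mark TGANTCA, the element bound by AP-1 (FOS and JUN family dimers), GGGCGG on either strand, the core of the GC box bound by SP factors, and TATAAA on the forward strand.
MMP3 (chr9:33453996-33454245, minus strand): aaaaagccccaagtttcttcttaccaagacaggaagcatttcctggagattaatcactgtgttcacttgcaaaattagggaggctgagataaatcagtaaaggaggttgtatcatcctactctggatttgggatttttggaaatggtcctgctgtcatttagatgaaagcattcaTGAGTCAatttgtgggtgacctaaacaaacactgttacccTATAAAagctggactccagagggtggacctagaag
MMP9 (chr17:48179440-48179689, plus strand): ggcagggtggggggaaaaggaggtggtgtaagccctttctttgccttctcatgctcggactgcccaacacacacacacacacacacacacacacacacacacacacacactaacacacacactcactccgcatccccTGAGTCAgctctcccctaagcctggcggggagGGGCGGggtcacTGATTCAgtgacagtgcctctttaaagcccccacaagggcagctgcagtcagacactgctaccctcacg
MMP11 (chr14:49917495-49917744, minus strand): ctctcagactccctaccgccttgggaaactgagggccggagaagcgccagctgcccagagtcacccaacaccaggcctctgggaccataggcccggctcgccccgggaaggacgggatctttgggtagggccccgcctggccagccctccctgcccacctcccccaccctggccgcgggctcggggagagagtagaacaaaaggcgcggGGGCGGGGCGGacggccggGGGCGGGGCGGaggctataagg
MMP14 (chr7:76185932-76186181, minus strand): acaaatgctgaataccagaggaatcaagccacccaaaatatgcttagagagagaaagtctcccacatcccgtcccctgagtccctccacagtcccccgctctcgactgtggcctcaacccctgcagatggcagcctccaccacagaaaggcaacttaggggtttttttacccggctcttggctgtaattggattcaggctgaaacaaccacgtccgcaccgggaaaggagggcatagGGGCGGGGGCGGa
TIMP3 (chr5:12242600-12242849, minus strand): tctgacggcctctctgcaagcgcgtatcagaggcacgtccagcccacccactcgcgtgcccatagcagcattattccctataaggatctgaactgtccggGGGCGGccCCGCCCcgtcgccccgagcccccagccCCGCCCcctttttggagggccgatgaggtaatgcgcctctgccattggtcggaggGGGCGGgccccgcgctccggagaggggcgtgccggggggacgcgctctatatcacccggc
MMP3 had TGAGTCA 75 to 69 bases before the start and TATAAA 35 to 30 bases before it. MMP9 had TGAGTCA 113 to 107 bases and TGATTCA 69 to 63 bases before the start, with 1 GGGCGG between them. MMP11 held 4 GGGCGG matches, which overlap by a base in pairs, MMP14 held 2 next to each other, and TIMP3 held 4. TGANTCA was found in 2 of the 9 windows, those of MMP3 and MMP9, and in 5.27% of the 19559 windows of protein-coding genes. At least 2 matches, as in MMP9, were found in 0.194% of them. GGGCGG was found in 6 of the 9 (MMP2, MMP9, MMP11, MMP14, TIMP2 and TIMP3) and in 45.9% of all. TATAAA was found in 1 of the 9 and in 6.15% of all. GGGCGG was the only marked element in MMP11 and MMP14, which fell, and in TIMP3, which rose. A match is a description of the letters, not evidence of binding, and the annotated start may not be the one used in these cells.

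MMP2 and MMP9 are the gelatinases, which cut denatured collagen and the type IV collagen of basement membranes. MMP2 (chromosome 6, 30059247 to 30087031, minus strand, protein-coding) had 285 and 280.3 FPKM in the knockdown against 294 and 290 in the control. By CPM it had 808 and 794 in the knockdown and 805 and 794 in the control, so the groups overlapped (log2 fold change 0.00, SE 0.0195, adjusted p = 0.92). It passed as higher only once trends of length and GC content were removed (log2 0.06, adjusted p = 0.00173) and on log2(TPM + 1) (0.18, adjusted p = 0.00326), a scale on which the median of all genes was itself 0.14.

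MMP9 (chromosome 17, 48179690 to 48186782, plus strand, protein-coding), the gelatinase known for its induction by cytokines and for its high level in phagocytes, had 73.0 and 71.5 FPKM in the knockdown and 96.8 and 98.5 FPKM in the control. Both knockdown libraries lay below both control libraries. The counts fell to 0.772 times control (log2 -0.37, SE 0.0319, adjusted p = 7.04e-22). With the length trend removed the log2 change was -0.31 and with length and GC trends removed -0.23. The summed macrophage markers were lower as well: 10 of the 12 were tested, 4 fell (23.8% over all tested genes), 1 rose (22.7%) and 5 did not pass. TYROBP, a signalling adaptor of myeloid cells, had 45.6 and 37.9 FPKM in the knockdown against 92.2 and 91.7 in the control. CSF1R, the receptor for the macrophage growth factor, had 1.23 and 1.15 against 1.17 and 1.16. By counts TYROBP changed by log2 -0.76, with an assigned transcript length of 539 to 545 bases. The 164 tested genes of 491 to 627 bases had a median of -0.50. The part of length in the TYROBP change was not tested. The part of the macrophage markers in the MMP9 result was not tested.

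MMP3 and MMP11 are stromelysins. MMP3 (chromosome 9, 33446969 to 33453995, minus strand, protein-coding), which cuts a wide range of matrix proteins and activates other MMP precursors, showed the deepest change of the 9. It had 3.03 and 2.33 FPKM in the knockdown and 6.29 and 5.66 FPKM in the control, from only 77 and 53 counts in the knockdown and 143 and 119 in the control. The groups did not overlap, and the fitted level was 0.477 times control (log2 -1.07, SE 0.16, adjusted p = 2.75e-09). It was the only one of the 9 to pass a 2-fold threshold, and 415 of the 15763 tested genes changed by more in either direction. With the length trend removed the log2 change was -0.90. Of the 10 tested macrophage markers 4 fell (23.8% over all tested genes), 1 rose (22.7%) and 5 did not pass. The part of these markers in the MMP3 result was not tested. Leaving out 1 library at a time gave log2 changes of -1.28 to -0.90, the extremes without knockdown replicate 1 and without knockdown replicate 2.

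MMP11 (chromosome 14, 49907684 to 49917494, minus strand, protein-coding) differs from most secreted MMPs in that furin-type proteases activate it inside the cell. It had 19.2 and 19.8 FPKM in the knockdown and 24.6 and 25.2 FPKM in the control. Its counts fell to 0.684 times control (log2 -0.55, SE 0.0425, adjusted p = 4.19e-25), while the ratio of its FPKM was 0.782. With the length trend removed the log2 change was -0.60. The table holds 8 transcripts of MMP11, and the transcript length that RSEM assigned to the gene was 3904 and 3886 bases in the knockdown against 4474 and 4576 bases in the control. With the effective length of each library as an offset the log2 change was -0.31 (adjusted p = 1.1e-06), and on log2(TPM + 1) with limma it was -0.13 (adjusted p = 0.0479), so its direction held while its size depended on the scale.

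MMP14 (chromosome 7, 76174502 to 76185931, minus strand, protein-coding) is the membrane-type MMP that cuts fibrillar collagen at the cell surface and, together with TIMP2, activates the MMP2 precursor. It had 72.91 and 72.95 FPKM in the knockdown and 101.0 and 101.7 FPKM in the control. The counts fell to 0.747 times control (log2 -0.42, SE 0.0258, adjusted p = 4.24e-34), and both groups were narrow and well apart. With the length trend removed the log2 change was -0.45 and with length and GC trends removed -0.38. MMP1 (chromosome 9, 33411738 to 33420205, minus strand, protein-coding), the interstitial collagenase, had 7.62 and 7.19 FPKM in the knockdown against 8.27 and 9.13 in the control. Its knockdown libraries were the lower ones but the difference did not pass (log2 -0.16, SE 0.0998, adjusted p = 0.189), nor did it under any of 16 alternatives (adjusted p from 0.057 to 0.954, log2 -0.04 with the length trend removed).

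TIMP3 (chromosome 5, 12185816 to 12242599, minus strand, protein-coding), the TIMP that stays bound to the matrix and also blocks ADAM17 and some aggrecanases, rose. It had 51.3 and 51.5 FPKM in the knockdown and 42.6 and 42.1 FPKM in the control, without overlap. The counts were 1.24-fold higher (log2 0.32, SE 0.0297, adjusted p = 5.12e-19), and the log2 change was 0.25 with the length trend removed and between 0.24 and 0.50 over 16 alternatives. Of the 10 Sertoli markers 6 rose (22.7% over all tested genes), 2 fell (23.8%) and 2 did not pass. Their part in the TIMP3 result was not tested. TIMP3 lies within the span of SYN3, a gene on the opposite strand with 45 and 47 counts in the knockdown and 45 and 41 in the control. TIMP3 itself had 4135 and 3713 counts in the knockdown and 3169 and 2894 in the control. Only the spans of the genes were compared, and whether their exons overlap was not tested.

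TIMP1 (chromosome X, 42103251 to 42106289, plus strand, protein-coding), a broad MMP inhibitor that also binds the MMP9 precursor, has a transcript of 716 bases, the shortest of the 9. It had 585 and 580.4 FPKM in the knockdown and 721 and 727 FPKM in the control, which do not overlap. By counts the difference was small, 265 and 263 CPM in the knockdown and 280.4 and 282 CPM in the control (log2 -0.09, SE 0.0264, adjusted p = 0.00203), and DESeq2 did not call it (adjusted p = 0.0659). With the length trend removed it was higher instead (log2 0.26, adjusted p = 2.34e-19), and more so with length and GC trends removed (0.40). With an effective length offset it was lower by more than in plain counts (log2 -0.26, adjusted p = 3.45e-09). TIMP1 lies within SYN1, a gene on the opposite strand with 52 and 46 counts in the knockdown and 36 and 36 in the control, and a second locus annotated as TIMP1-like had 0 counts in all 4 libraries.

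TIMP2 (chromosome 12, 3254794 to 3300835, plus strand, protein-coding), the inhibitor that bridges MMP14 and the MMP2 precursor, had 308 and 314 FPKM in the knockdown and 331 and 336 in the control, so it was lower by FPKM. By counts it was higher, with 412 and 404 CPM in the knockdown and 381 and 381 CPM in the control (log2 0.10, SE 0.0233, adjusted p = 1.27e-04). The assigned transcript length was 1593 and 1547 bases in the knockdown against 1482 and 1467 bases in the control, over 5 transcripts. TIMP2 overlaps CEP295NL on the same strand, a gene with 11 and 4 counts in the knockdown and 5 and 7 in the control. On log2(FPKM + 1) it passed as lower (limma, log2 -0.10, adjusted p = 0.0235), with the effective length offset it did not pass (-0.05, adjusted p = 0.0857), and with the length trend removed it passed as higher (0.27, adjusted p = 6.41e-25). The direction of TIMP1 and of TIMP2 thus differed between scales, and the cause was not tested.

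**Figure D3:**
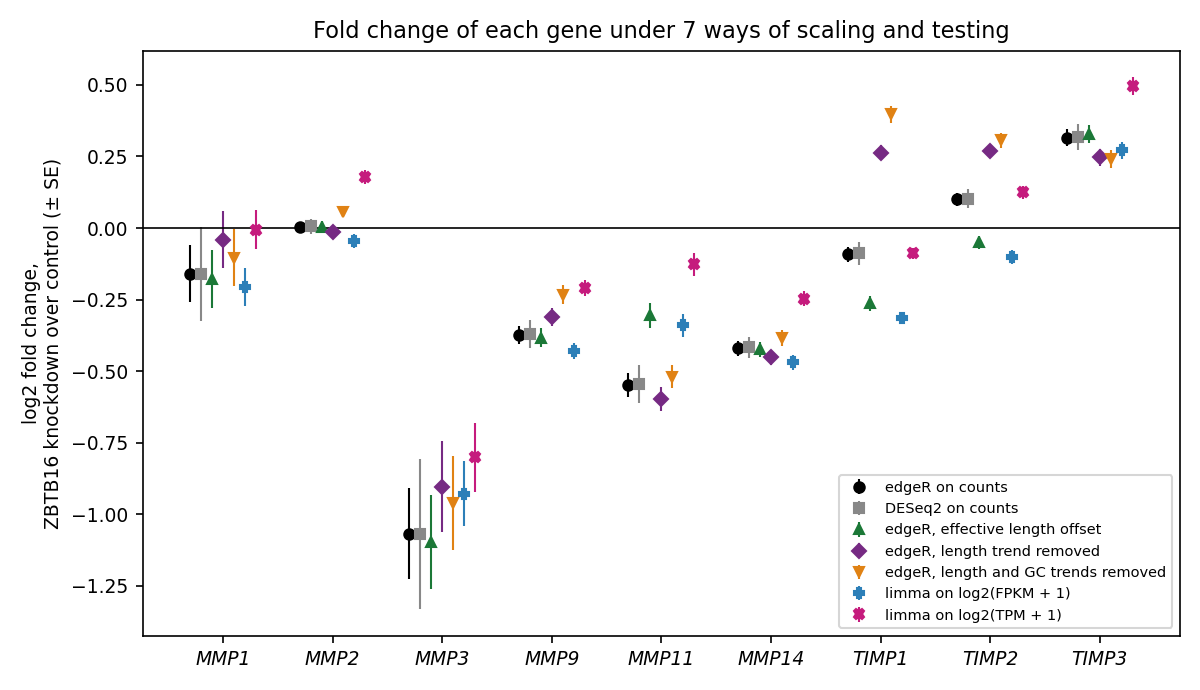
Log2 fold change, knockdown over control, of each gene with its standard error under 7 combinations of scale and test. MMP3, MMP9, MMP11 and MMP14 stay below 0 and TIMP3 above 0 in all 7, while TIMP1 runs from -0.31 to 0.40 and TIMP2 from -0.10 to 0.31.

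**Figure D4:**
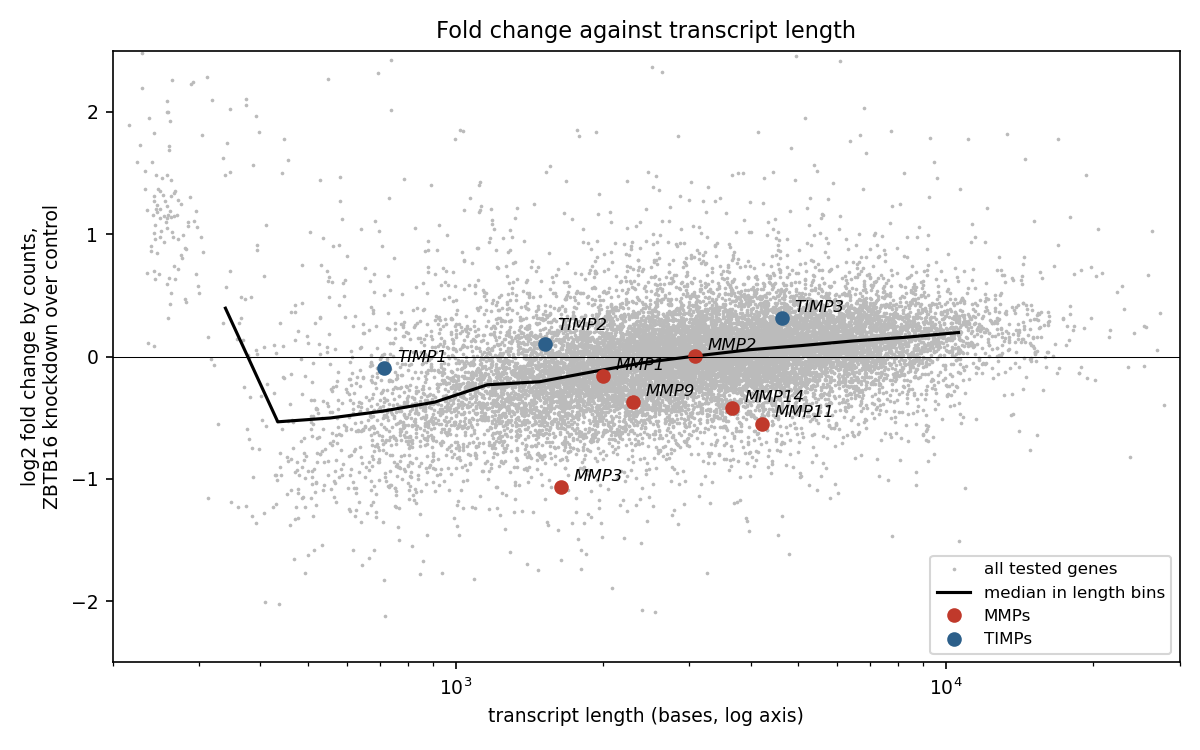
Log2 fold change by counts against transcript length (log axis) for tested genes (grey, 62 of 15763 lie outside the axes) with the median in length bins (line). The line stands at 0.40 for the 38 genes of the shortest bin, drops to -0.53 in the next bin and rises from there to 0.20 in the longest. MMP3, MMP9, MMP11 and MMP14 lie below it and TIMP1, TIMP2 and TIMP3 above it.

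Within a library, the proportions among the proteinases shifted towards MMP2. MMP2 made up 61.9% and 61.7% of the summed FPKM of the 6 proteinases in the knockdown, against 55.4% and 54.7% in the control. The ratio of MMP14 to TIMP2 by FPKM was 0.237 and 0.232 in the knockdown and 0.305 and 0.303 in the control, and that of MMP9 to MMP2 was 0.256 and 0.255 against 0.329 and 0.340. TIMP3 made up 5.43% and 5.44% of the summed FPKM of the 3 inhibitors in the knockdown and 3.90% and 3.81% in the control. The summed inhibitors stood at 2.05 and 2.08 times the summed proteinases in the knockdown and at 2.06 and 2.09 times in the control, so that ratio overlapped between the groups. These are ratios of FPKM, with no test, and those that hold TIMP1 or TIMP2 carry the same dependence on length.

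RNAs of the 7 AP-1 members in the list went both ways: FOSL1, FOS, JUN and JUND (log2 0.22) rose, FOSB (-0.45) and JUNB (-0.19) fell, and FOSL2 did not pass (0.03, adjusted p = 0.341). Of 20 transcription factors and cytokines known to act on MMP genes, 8 rose, 4 fell and 8 did not pass (median log2 0.02). The shares over all tested genes were 22.7% higher and 23.8% lower. FOSL1 had 56.7 ± 2.44 FPKM in the knockdown and 42.8 ± 1.59 in the control (SD, n = 2; log2 0.48), JUN 108 ± 3.04 and 94.6 ± 0.212 (log2 0.31) and FOS 58.3 ± 0.191 and 49.7 ± 2.15 (log2 0.35). TGFB2, a cytokine of the TGF-beta family, rose (log2 0.57), while ETV4, an ETS factor, fell (log2 -0.30, but -0.07 on log2(TPM + 1), limma, adjusted p = 0.3). Without the length trend JUN was at 0.49 and FOS at 0.54. OSM, a cytokine of the IL-6 family known to induce MMPs in fibroblasts, had 7 and 13 counts in the knockdown and 28 and 30 in the control, and fell the most in the list (log2 -1.58, SE 0.374, adjusted p = 1.51e-04).

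The rest of the family was mostly low. Of 17 other family members, TIMP4 included, 15 were in the table and 10 were tested. Of the 10, 3 rose (22.7% over all tested genes), 2 fell (23.8%) and 5 did not pass (median log2 -0.12). MMP23B was the highest of these, at 45.7 ± 1.65 FPKM in the knockdown and 43.3 ± 0.0283 in the control (SD, n = 2; log2 0.17, adjusted p = 0.00397). MMP16, another membrane-type MMP (log2 0.38), and MMP25, an MMP with a lipid anchor (log2 0.51), also rose, each below 3 FPKM. MMP24 (log2 -0.62) and MMP19 (log2 -0.13) fell. All 5 of these calls were lost under at least 1 alternative: with DESeq2 the adjusted p was 0.111 for MMP23B, 0.06 for MMP25, 0.0774 for MMP24 and 0.279 for MMP19, and with the length trend removed it was 0.0639 for MMP16. Leaving out knockdown replicate 1 ended the calls of MMP23B (0.105) and MMP25 (0.0809), leaving out control replicate 2 that of MMP24 (0.0635), and leaving out any 1 of the 4 libraries that of MMP19 (0.0622 to 0.2).

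MMP1 and MMP3 belong to a cluster of 8 MMP genes that spans 402 kb of chromosome 9, and the cluster was quiet around them. MMP7 had 0 counts in all 4 libraries, and MMP20, MMP27 and MMP8 had at most 4 counts in any library. MMP12, the macrophage elastase, had 1.67 and 1.81 FPKM in the knockdown and 2.37 and 1.86 in the control (log2 -0.20, adjusted p = 0.568). MMP13 had 0.28 and 0.46 FPKM in the knockdown against 0.68 and 0.65 in the control (log2 -0.69, adjusted p = 0.0764). Of the cluster only MMP1, MMP3, MMP12 and MMP13 were tested, and of these MMP3 alone passed. Over all tested genes 46.4% were called.

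Genes of MMP activation and membrane control, receptors and matrix proteins among them, went both ways. Of the 18 tested 8 rose, 9 fell and 1 did not pass (median log2 -0.02). Over all tested genes 22.7% rose and 23.8% fell. CTSB, a cathepsin that can activate MMP precursors, fell to 0.695 times control (728 ± 1.92 FPKM in the knockdown and 1094 ± 9.72 in the control, SD, n = 2), and CTSK, a collagen-cutting cathepsin, fell to 0.794 times. Once the length trend was removed their log2 changes were -0.39 and -0.21, against -0.53 and -0.33 by counts, and CTSK did not pass on log2(TPM + 1) (limma, -0.06, adjusted p = 0.0871). THBS1, a matrix glycoprotein that binds MMP2 and MMP9, rose (log2 0.33), as did CD44, a hyaluronan receptor that can hold MMP9 at the cell surface (log2 0.22), and the changes were 0.21 and 0.15 without the length trend. LRP1, the receptor that clears MMP and TIMP complexes, rose 1.12-fold by counts but was lower after removal of the length trend (log2 -0.10, adjusted p = 5.84e-07). RECK, a membrane-anchored inhibitor of MMPs, did not pass (4.28 FPKM in the knockdown and 4.12 in the control, adjusted p = 0.498).

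Of 24 ADAM and ADAMTS proteases 4 rose (22.7% over all tested genes), 5 fell (23.8%) and 15 did not pass (median log2 0.00). The aggrecanase ADAMTS4, an enzyme that TIMP3 inhibits, had the deepest fall, with 20.6 ± 0.375 FPKM in the knockdown and 34.4 ± 0.177 in the control (SD, n = 2; log2 -0.69, SE 0.0408, adjusted p = 6.13e-36). The membrane sheddases ADAM9, ADAM12 and ADAM10 rose, with log2 changes of 0.32, 0.37 and 0.25, and ADAMTS3, which trims procollagen, fell (-0.20). Without the length trend ADAM12 was at 0.20 and ADAMTS3 at -0.33. ADAM10 did not pass on log2(FPKM + 1) with no filter (limma, adjusted p = 0.0542), nor did ADAMTS3 on log2(TPM + 1) (limma, -0.01, adjusted p = 0.878). ADAM17, the sheddase that TIMP3 inhibits, did not pass (log2 0.02, adjusted p = 0.684).

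Among 19 tested matrix substrates 7 rose (22.7% over all tested genes), 6 fell (23.8%) and 6 did not pass (median log2 -0.01). HSPG2, the basement membrane proteoglycan perlecan, had 47.3 ± 0.431 FPKM in the knockdown and 35.6 ± 0.0919 in the control (SD, n = 2; log2 0.44), and its log2 change was 0.19 without the length trend. COL4A1, a chain of type IV collagen, and LAMC1, a laminin chain, rose by log2 changes of 0.17 and 0.19, and neither passed with the length trend removed (adjusted p = 0.0742 and 0.112). The matrix protein SPARC rose (log2 0.18, or 0.32 without the length trend) and COL3A1, a fibrillar collagen, fell (-0.17, but -0.00 on log2(TPM + 1), limma, adjusted p = 0.883).

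**Figure D5:**
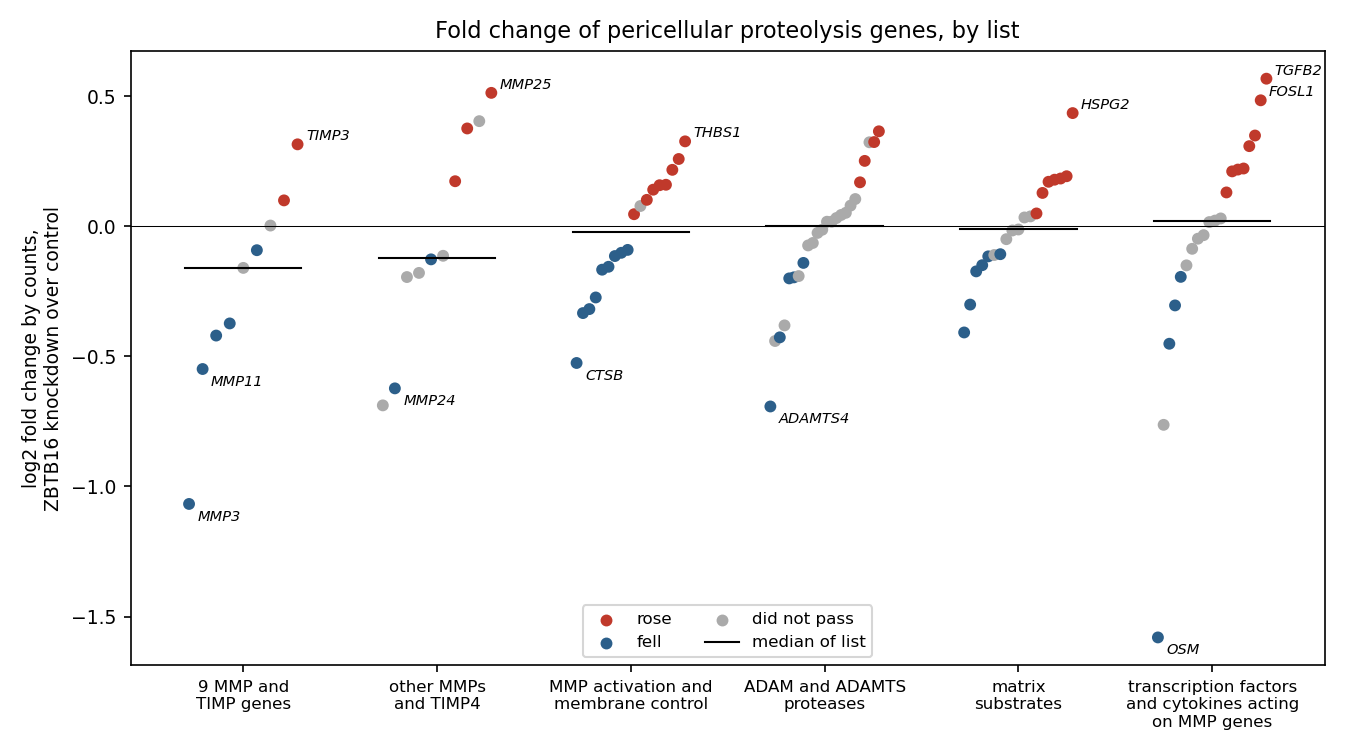
Log2 fold change by counts of tested genes in each list (red rose, blue fell, grey did not pass) with the list's median (line), beginning with the 9 MMP and TIMP genes. The 9 genes have a median of -0.16, and the medians of the other 5 lists lie between -0.12 and 0.02.

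The profile over the 4 libraries nearest to that of MMP3, by Euclidean distance between log2(FPKM + 1) values centred on each gene's mean, was that of CYBA, a subunit of the phagocyte NADPH oxidase. CYBA had 21.8 ± 3.13 FPKM in the knockdown and 41.4 ± 2.81 in the control (SD, n = 2; distance 0.0271). GRASP, a scaffold protein, and GADD45G, a stress-response protein, were next (0.0699 and 0.0822), and in all 4 of 11511 genes lay within 0.1. For TIMP3 the nearest were SRCAP, a chromatin remodeller, USP25, a deubiquitinase, and ECT2, a regulator of cytokinesis (0.00507 to 0.0085). As many as 947 genes lay within 0.1 of TIMP3, so its profile is a common one. With 4 libraries in 2 groups genes with a like difference between the groups lie near each other.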

How the data were processed

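RNA of 2 ZBTB16 knockdown and 2 control libraries was compared. Per the labels' protocols, the authors filtered reads with SOAPnuke 2.1.0, aligned them with HISAT2 2.2.1 to Sscrofa 11.1, mapped them to transcripts with bowtie2 2.3.5 and counted them with RSEM 1.3.3, which deposited expected counts, TPM and FPKM, with a length and an effective length per gene. RSEM shares reads among transcripts, so expected counts need not be whole, and the effective length falls with the fragment length. The sources used here do not say whether counting used strand.

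Expected counts were rounded and tested with edgeR 4.0.16 (R 4.3.3): TMM scaling, filterByExpr (minimum count 10, minimum total 15), two-sided quasi-likelihood test, Benjamini-Hochberg adjustment over all tested genes, called under 0.05. Standard errors are the size of the log2 fold change over the square root of the F statistic. Unless a tool is named, adjusted p-values are those of edgeR. Alternatives were DESeq2 1.42.0, 2 other scalings, no filter, limma 3.58.1 on log2(FPKM + 1) and log2(FPKM + 0.1), a replicate block, leaving out each library, an effective length offset, and smooth trends of length and of GC content removed per library (mgcv 1.9.3). Limma on log2(TPM + 1) was added after seeing the data. FPKM is given per library or as mean ± SD. Coordinates, promoters and GC content come from RefSeq on Sscrofa11.1, to which 26265 genes matched by transcript.

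The 9 genes and all lists were chosen with earlier results of these data known. Besides ZBTB16 and the 9, up to 5 genes per list were named by smallest p (mean FPKM 1 or more in the group with more), and 3 nearest profiles each for the MMP and the TIMP with the largest called change. OSM, FOSB, FOSL2, JUNB, JUND, RECK, ADAM17, MMP7, MMP8, MMP12, MMP13, MMP20 and MMP27 were named after their values were seen.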

Additional observations from a re-analysis of the deposited data

How the results depend on the processing

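Values of single genes here are log2 fold changes, knockdown over control. Over 16 alternatives each, the 2-fold threshold apart, MMP3, MMP9, MMP11, MMP14 and TIMP3 kept their direction and their call, and MMP1 stayed uncalled. MMP2, at 0.00, passed as higher with length and GC trends removed (0.0555) and on log2(TPM + 1) (0.179, chosen after seeing the data), and was uncalled at -0.0062 without a low-count filter, -0.0458 on log2(FPKM + 1) with and without a filter, -0.0459 on log2(FPKM + 0.1) and -0.0146 with the length trend removed. Leaving out a library gave MMP2 -0.0130 to 0.0167. TIMP1 was at -0.0889 with DESeq2, uncalled, and higher with the length trend (0.2633) or length and GC trends (0.3968) removed. TIMP2 was lower on log2(FPKM + 1) (-0.1003), uncalled without a filter there (adjusted p = 0.0533), on log2(FPKM + 0.1) (-0.1006) and, uncalled, with the effective length offset (-0.0498). LRP1 was at -0.1008 with the length trend removed and, uncalled, at -0.0037 with length and GC trends removed, and MMP19 at 0.0374, uncalled, on log2(TPM + 1). The cause was not tested.

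The 2 genes that rose became 1 on either FPKM scale, with or without a filter, and with the effective length offset, and 4 with length and GC trends removed. At a 2-fold threshold 1 of the 9 was called, 0 higher and 1 lower, and of all genes 470, 259 higher and 211 lower. Of all genes 7319 were called (3574 higher, 3745 lower), 4441 by DESeq2 (2169 and 2272) and 4438 on log2(FPKM + 1) without a filter, 1421 of them higher. With the filter 2038 were higher there and 2034 on log2(FPKM + 0.1), and 34.4% of calls were higher, against 48.8% by counts. On log2(TPM + 1) 5446 were higher and 1893 lower, 74.2% higher. Leaving out 1 library gave 6040 to 6265 calls. With the replicate block, 7480 genes were called and no call of the 9 changed. The deviations of libraries with the same number did not correlate (0.00 over 15763 genes). Replicates differed little more than by sampling, so this check cannot show whether the numbers pair the samples. Counts of 53 to 143 limit MMP3, whose standard error was the largest of the 9.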
